A study of Homo sapiens with 12 samples.

Results

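Cytosolic ribosomal protein genes encode the protein subunits of the ribosome that translates nuclear-encoded mRNA. The large subunit joins amino acids and carries the tunnel through which the new chain leaves, and the small subunit reads the mRNA. Their mRNAs are among the most abundant of a growing cell, and most start with a run of pyrimidines, the TOP motif, through which mTOR signalling controls their translation. Several of the proteins, RPL5 and RPL11 first among them, bind MDM2 when ribosome assembly fails, and loss of 1 copy of some of the genes causes Diamond-Blackfan anemia, a failure of red cell production.

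The set was chosen by symbol: every gene of the table named RPL or RPS followed directly by a digit, with RPLP0, RPLP1, RPLP2 and RPSA, without the RPS6K kinases, the RPS4Y genes and 7 named paralogs. It held 82 of the 20036 genes of the table. Of these, 47 encode large subunit proteins and 31 small subunit proteins. The symbol rule also brought in RPS19BP1, which encodes an RPS19-binding protein and not a ribosomal protein, and 3 readthrough genes (RPL17-C18orf32, RPL36A-HNRNPH2 and RPS10-NUDT3) that were listed at 0 in all libraries. FPKM is reads per kilobase of gene model, scaled to the total reads of the library. A filter that kept genes reaching 1 FPKM in 3 libraries left 79 of the 82, which are the genes counted below. Of the 79, 78 reached that level in all 12 libraries. RPL17 reached it in 7, namely all ELI and Comb libraries and 1 of ABT, so it passed through the groups where it is high. It enters the counts, and is 1 of the genes counted as higher in ELI and in Comb, each against DMSO and against ABT. No difference of it is given as a result.

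RNA was sequenced from MV-4-11, an acute myeloid leukemia line of wild-type genotype per the labels, whose cells grew in medium with fetal bovine serum. There were 12 libraries, 3 for each of 4 treatments of 48 h: the DMSO vehicle, eliglustat (ELI), which inhibits the glucosylceramide synthase UGCG, venetoclax (ABT), which inhibits BCL2, and both drugs together (Comb). The sources used here name no doses. The study's title is about UGCG as a target and the response to venetoclax. All groups come from 1 cell line, and nothing says that replicates are separate cultures, so p-values measure the spread between these libraries, which may be technical.

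Reads recovered from the FPKM steps came to 17259898 to 21082302 per library. All 7 myeloid leukemia markers were tested, and CD33, a myeloid surface receptor, stood at 22.6 to 27.0 FPKM. Of 10 markers of lymphoid, erythroid, epithelial and fibroblast cells, HBB, KRT19 and COL1A2 were at 0 in all libraries and 1 of the 10 passed the filter. FPKM are relative values, so an equal change of all mRNAs of a cell is not visible in them, and in such bulk samples fewer cells of a type and less RNA per cell cannot be told apart.

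Levels spanned about 3 orders of magnitude, although the proteins are needed in about equal number. The median of the 79 genes was 254 FPKM, and 65 had a mean above 100 FPKM. Among the highest means were those of RPL41 at 1435, RPS18 at 1264, RPL21 at 949 and RPS12 at 930 FPKM. RPS18 and RPS12 belong to the small subunit, RPL21 to the large subunit, and RPL41 encodes the shortest ribosomal protein. RPL41 ranged from 1251 FPKM in an ELI library to 1660 FPKM in a DMSO library.

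Among the lowest means were those of RPL17 at 1.23, RPS10 at 1.80, RPL36A at 2.18, RPS15A at 4.30 and RPL26 at 6.14 FPKM. All 6 tested genes with a mean under 10 FPKM, these among them, overlapped another protein-coding gene on the same strand in GENCODE 29. Of the 73 genes at or above 10 FPKM only 3 did, namely RPS13, RPL36 and RPL22. For RPL17, RPS10 and RPL36A the overlapping gene was the readthrough gene listed at 0. Whether the counting dropped reads shared by overlapping genes was not tested, so the low values are not taken as levels of these mRNAs.

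**Figure D1:**
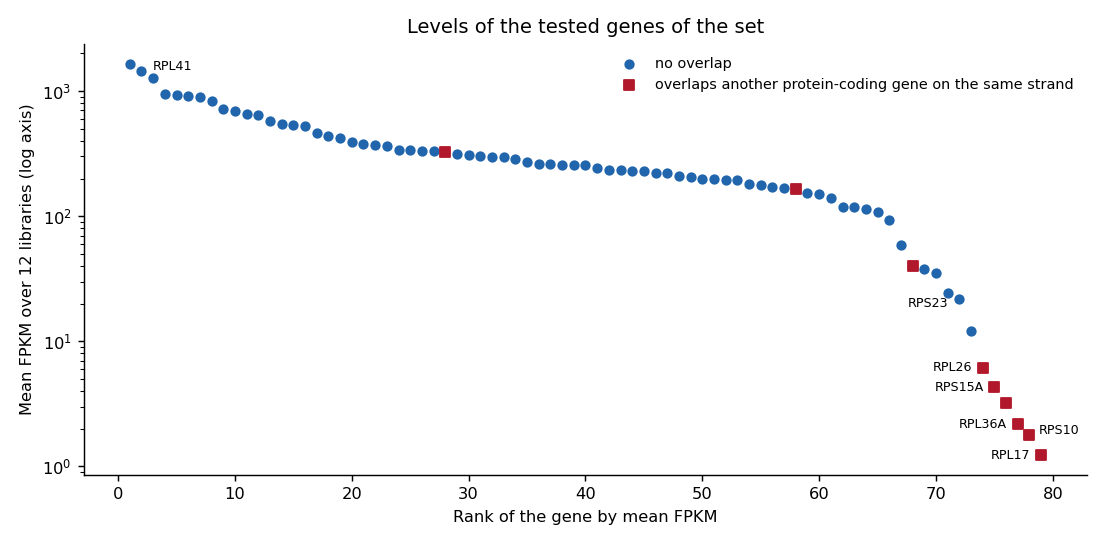
Mean FPKM over 12 libraries (vertical log axis) of the 79 tested genes by rank (horizontal axis); red squares are genes that overlap another same-strand protein-coding gene, blue points those that do not. All 6 genes under 10 FPKM are red squares, against 3 of 73 above that level.

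Processed pseudogenes are a further limit. GENCODE 29 names pseudogenes for 76 of the 79 genes, with a median of 9 and up to 91 for RPL23A. RPL36A and RPL36AL encode nearly identical proteins. No source used here says how reads with several matching places were counted, so the levels of all these genes are uncertain to that extent.

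Gene-model length also entered the level. The recovered model of RPS29 was 9840 bases long for a coding sequence of 261 bases, and that of RPS12 was 639 bases for 396. Per kilobase of coding sequence RPL37, a large subunit protein, ranked 2 of 79, while by FPKM it ranked 43. RPL37A rose from rank 46 to rank 4 in the same way, and RPL41 ranked 1.

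The first transcribed bases are shown because the pyrimidine start is the feature these genes are best known to share. RefSeq (GRCh38.p14) starts matched 63 of the 79 genes. A C at an annotated first base followed by at least 4 more C or T was found for 46 of the 63 (73.0%), against 5.14% of the 27305 genes of that promoter table, a gene with several starts counting once. The windows below hold 15 bases before the annotated start and 15 from it on, on the gene's strand, for the 5 genes with the largest rise and the 5 with the largest fall from ABT to Comb among the matched genes. Capitals mark the unbroken run of C and T that holds the first transcribed base, the 16th letter.
RPS23, chr5:82278340-82278369, minus strand: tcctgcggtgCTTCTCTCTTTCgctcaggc
RPL22, chr1:6199581-6199610, minus strand: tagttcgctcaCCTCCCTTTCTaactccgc
RPS12, chr6:132814554-132814583, plus strand: gcgtgcggatgaggCCTCTTTCCCTgccgc
RPS24, chr10:78033848-78033877, plus strand: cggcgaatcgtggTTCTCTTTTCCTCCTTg
RPS27A, chr2:55232673-55232702, plus strand: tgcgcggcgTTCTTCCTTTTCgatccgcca
RPSA, chr3:39406705-39406734, plus strand: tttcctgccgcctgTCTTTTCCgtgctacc
RPL35, chr9:124861943-124861972, minus strand: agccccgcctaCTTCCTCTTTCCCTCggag
RPS26, chr12:56041903-56041932, plus strand: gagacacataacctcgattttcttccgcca
RPS15, chr19:1438381-1438410, plus strand: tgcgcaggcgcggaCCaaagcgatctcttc
RPS9, chr19:54200843-54200872, plus strand: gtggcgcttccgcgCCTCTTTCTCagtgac

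All 5 genes with the largest rise carried such a run over the annotated start, as did RPSA, RPL35 and RPS9 among those with the largest fall. RPS26 had none over the first base, and RPS15 had a run of 2. A run of at least 5 over the start was found for 20 of 23 matched genes called higher in Comb than in ABT, 8 of 10 called lower and 22 of 30 not called. A match of letters is a description of the annotated start, not a measured start site. The motif CCGGAAG, the core bound by ETS factors such as GABPA, stood on either strand of the 300-base promoter in 22 of 63 genes (34.9%), against 12.2% of all genes of the table and 42.2% of 64 mitochondrial ribosomal protein genes; read on the other strand it is CTTCCGG, which can share bases with the pyrimidine run.

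The set took up 6.73% to 8.14% of the recovered reads of a library. The share was 7.0%, 7.75% and 8.11% in DMSO replicates 1 to 3, and 6.73%, 7.06% and 7.24% in ELI. It was 7.34%, 7.69% and 8.14% in ABT, and 7.86%, 7.63% and 7.79% in Comb. All Comb and all ABT libraries lay above all ELI libraries, while DMSO overlapped every other group and ABT overlapped Comb. As a share of summed FPKM, in which long gene models weigh less, Comb lay at 10.5% to 10.7%, above DMSO at 9.74% to 10.4%, ELI at 9.57% to 10.1% and ABT at 9.64% to 10.1%. On that scale ABT and ELI overlapped.

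**Figure D2:**
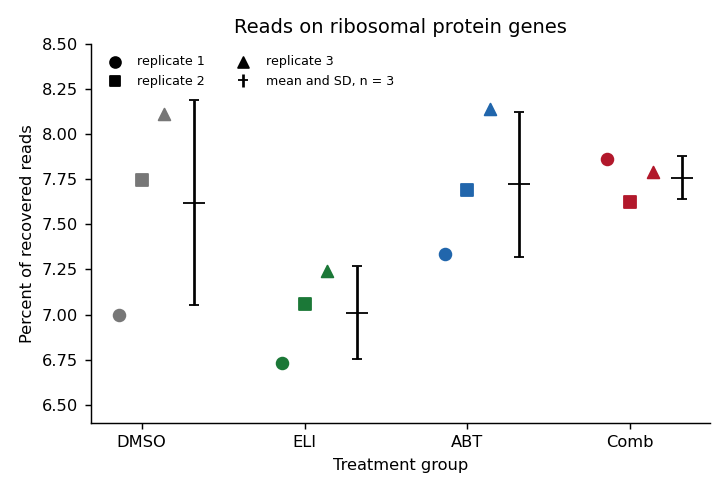
Percent of the recovered reads of each library (vertical axis) that fell on the ribosomal protein genes, by treatment group, with symbols for replicate number and bars for the mean and SD (n = 3). The ELI libraries lie at 6.73% to 7.24% and the Comb libraries at 7.63% to 7.86%.

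The genes moved together from library to library. The median Pearson correlation of pairs of the 79 genes across 12 libraries was 0.43, and 0.51 on deviations from group means, a description of genes that share libraries and depth. Replicate 1 held the lowest value of its group for 51 of 79 genes in DMSO, 52 in ELI and 53 in ABT, while in Comb replicate 1 held the highest value for 52. Same-numbered libraries of DMSO, ELI and ABT deviated together and those of Comb did not, so the counts of called genes that moved without the libraries numbered 1 are given both ways. Some counts from other fits are given below without the share of all genes in that fit. That share moves between fits too, so these counts are not read as particular to the set.

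Comb against ABT asks what eliglustat added to venetoclax. Of 79 ribosomal protein genes, 26 rose and 13 fell (adjusted p below 0.05 by limma, Benjamini-Hochberg over all genes tested). Over all genes 35.4% rose and 31.7% fell, so both counts are close to or under the background. The median log2 difference was 0.02, as over all genes. The balance of the directions depended on the libraries. Without the 4 libraries numbered 1, 26 genes were higher and 30 lower, against 39.1% and 34.3% of all genes, and the median was -0.03. The counts were 30 and 19 without DMSO replicate 1 and 29 and 7 without ABT replicate 3, and leaving out any 1 library gave 7 to 19 lower genes. With all libraries, the large subunit had 16 genes higher and 7 lower of 47, and the small subunit 10 and 6 of 31.

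RPS23, which sits at the decoding center of the small subunit, changed most. Its FPKM was 16.1, 15.3 and 16.6 in ABT and 31.8, 28.7 and 30.5 in Comb, and 17.4, 15.6 and 16.3 in DMSO and 24.2, 22.8 and 24.0 in ELI. The ELI libraries lay above all DMSO and ABT libraries, and the Comb libraries above all ELI libraries. The difference of Comb from ABT was 0.88 on the log2(FPKM + 1) scale (SE 0.06, adjusted p = 4.5e-07).

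RPS12, a protein of the small subunit head, stood at 799.8, 736 and 825 FPKM in ABT and at 1269, 1169 and 1228 FPKM in Comb, a log2 difference of 0.64 (SE 0.08, adjusted p = 5.3e-05). RPL22, a large subunit protein that mice survive without, rose from 34.0, 28.0 and 29.96 to 48.95, 50.03 and 48.6 FPKM, a log2 difference of 0.67 (SE 0.09, adjusted p = 8.9e-05). For both genes no library of ABT reached those of Comb. RPS24, a Diamond-Blackfan anemia gene, rose by a log2 difference of 0.62 (SE 0.09), RPL7 by 0.61 (SE 0.12) and RPS27A, which is made as a fusion with ubiquitin, by 0.56 (SE 0.11).

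RPSA, a small subunit protein also known as a laminin receptor, fell most. Its FPKM was 195, 222 and 235 in ABT and 154, 147 and 147 in Comb, with 167, 208 and 211 in DMSO and 135, 152 and 149 in ELI. No Comb or ELI library reached those of DMSO or ABT. The log2 difference of Comb from ABT was -0.53 (SE 0.10, adjusted p = 0.00053).

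RPL35, which lies at the exit of the peptide tunnel, fell from 342, 400.5 and 431 FPKM in ABT to 289, 269.8 and 266 FPKM in Comb, a log2 difference of -0.50 (SE 0.12, adjusted p = 0.0031). RPS2 stood at 1050, 1112 and 1080 FPKM in ABT and 733, 797 and 829.9 FPKM in Comb, a log2 difference of -0.46 (SE 0.10, adjusted p = 0.0015). In neither gene did the libraries of the groups overlap. RPL8, near the site where peptide bonds form, differed by -0.49 (SE 0.09) and RPS26, at the mRNA exit, by -0.34 (SE 0.09).

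**Figure D3:**
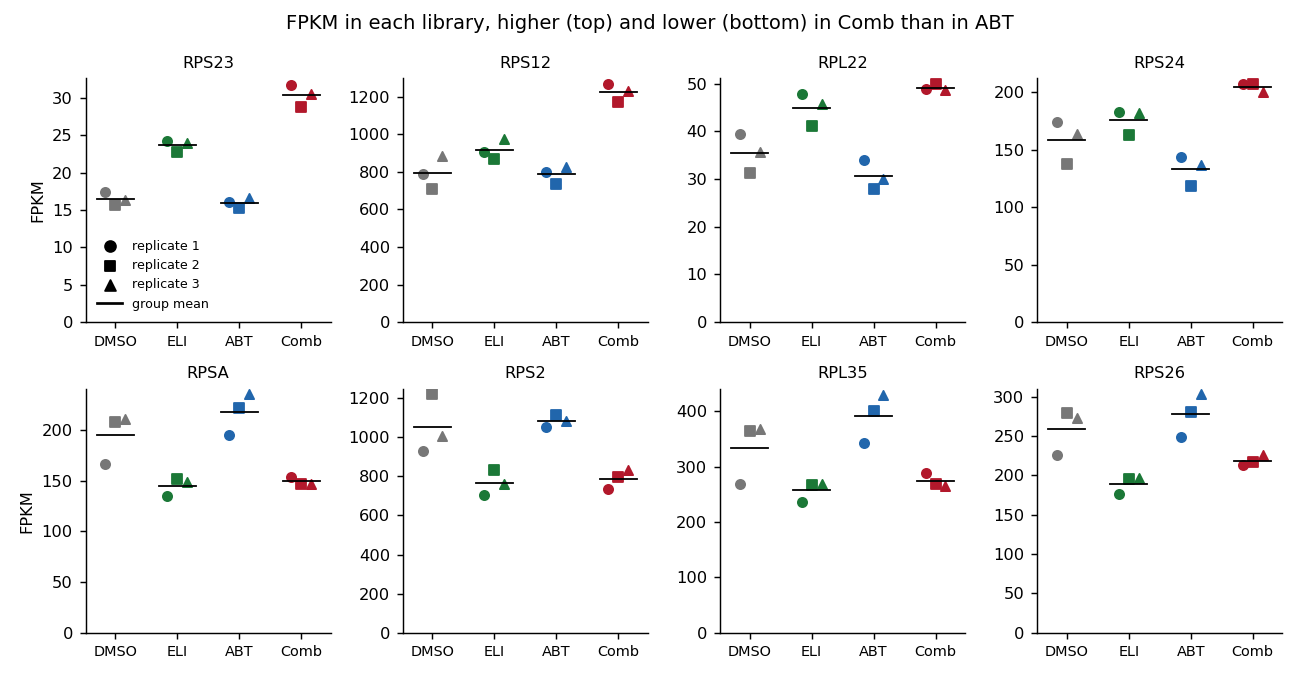
FPKM of 8 genes (vertical axes from 0) in each library by treatment group, with symbols for replicate number and a line for the group mean; the top row rose and the bottom row fell from ABT to Comb. The RPS23 values of Comb lie at 28.7 to 31.8 FPKM, above every other library, and the RPSA values of ELI and Comb at 135 to 154 FPKM, below those of DMSO and ABT.

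Against DMSO, Comb raised 26 genes and lowered 8 of the 79, where over all genes 25.7% rose and 25.8% fell. The median log2 difference was 0.10, against 0.02 for all genes. RPS23 rose by 0.85 (SE 0.06, adjusted p = 7.7e-07) and RPS12 by 0.63 (SE 0.08, adjusted p = 7.2e-05). Next came RPL23A at 0.59, RPL30 at 0.54 and RPL26 at 0.50, the last among the genes with overlapping neighbours. RPS2 fell by 0.41 (SE 0.10), RPSA by 0.38, RPL8 by 0.31, RPS15 by 0.26 and RPS26 by 0.24. RPL41, the shortest protein, fell by 0.22 (SE 0.06, adjusted p = 0.0079). The excess of rises was not kept in every fit. Without the 4 libraries numbered 1, 23 genes were higher and 23 lower, against 34.9% and 32.4% of all genes, and the median was no longer above 0. Without DMSO replicate 1 they were 25 and 19, and without DMSO replicate 3 they were 33 and 3. The counts were 15 higher and 3 lower when DMSO replicate 2 was left out, and 16 and 3 when Comb replicate 1 was. RPL23A, RPL30, RPL8, RPS15 and RPS26 lost their calls in both cases, and the last 3 also without DMSO replicate 3. Of 22 alternatives, RPS26 lost its call in 13 and RPS15 in 11.

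With all 12 libraries, eliglustat alone lowered near the background share of these genes and raised fewer than that share. Of the 79, 5 rose and 15 fell against DMSO, where 16.4% of all genes rose and 19.8% fell. RPL17, which passed the filter through the groups where it is high, is 1 of the 5. The median log2 difference was -0.08, against 0.01 for all genes. RPS23 rose by 0.50 (SE 0.06, adjusted p = 0.00016), RPL22 by 0.34, RPL26 by 0.27 and RPL36AL by 0.24. RPL22 and RPL26 are among the 9 genes that overlap another same-strand protein-coding gene, of which 3 were called higher and 1 lower. RPL26 is also among the genes under 10 FPKM, whose values are not taken as levels. RPS2 and RPS26 fell by 0.45 each (SE 0.10 and 0.09), RPSA by 0.42, RPL8 by 0.41 and RPL36 by 0.39.

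With the replicate number as a block in the 9 libraries of DMSO, ELI and ABT, 10 genes were higher and 34 lower, against 27.2% and 25.9% of all genes. The labels do not say that these numbers pair, which was taken from the values. Without the 4 libraries numbered 1 the counts were 5 and 37, against 29.9% and 26.1% of all genes. Leaving out DMSO replicate 1 gave 7 higher and 39 lower, DMSO replicate 2 gave 2 and 6, and DMSO replicate 3 gave 5 and 5. Leaving out ELI replicate 1 gave 2 and 5, and ELI replicate 3 gave 2 and 7. The shares of all genes in these fits with 1 library left out are not given, so these counts are not compared with the background. Among the named genes, RPS23, RPS2, RPS26, RPSA and RPL8 kept their calls under every alternative run. Of 23 alternatives, RPL36AL lost its call in 14, among them both other scalings, no filter and voom, RPL26 in 11, RPL36 in 6 and RPL22 in 4.

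Venetoclax alone changed none of the 79 genes past the threshold by limma, and by voom on recovered reads also 0. By adjusted p from limma, 0% of all genes rose and 0.151% fell. An unadjusted p under 0.05 by limma was found for 2 of the 79 genes, against 2011 of all 9959 genes tested. The largest positive log2 differences were 0.30 for RPL30, 0.26 for RPS29 and 0.24 for RPL35, and the largest negative ones -0.25 for RPS24, -0.23 for RPL7 and -0.20 for RPL22, with adjusted p of 0.21 to 0.32. With the replicate block in the 9 libraries of DMSO, ELI and ABT, 8 genes were higher and 5 lower, against 7.97% and 15.6% of all genes. Without DMSO replicate 2, 3 genes were lower.

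Comb against ELI asks what venetoclax added to eliglustat, and nearly the whole set was a little higher in Comb. The log2 difference was above 0 for 78 of 79 genes, with a median of 0.16 against 0.01 for all genes. In 62 genes all 3 Comb libraries lay above all 3 ELI libraries, which is 78.5% of the set against 19.7% of all genes. In no gene did all Comb libraries lie below all ELI libraries, which 20.6% of all genes did. Since the genes move together between libraries, the 62 are not independent of each other, and the difference between these shares was not tested.

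The same measure gave other counts elsewhere. In Comb against ABT 28 genes were higher and 22 lower without overlap, where 39.7% and 36.8% of all genes were. In Comb against DMSO the counts were 29 and 8, where 27.3% and 28.4% of all genes were. Eliglustat alone gave 7 and 10 (all genes 18.4% and 22.1%), and venetoclax alone 1 and 1 (all genes 7.73% and 5.80%). In ELI against ABT 15 were higher and 38 lower (all genes 36.5% and 34.7%).

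The changes were small for single genes, and few passed the threshold. RPS15A at 0.44 (SE 0.11, adjusted p = 0.023), RPS12 at 0.41 (SE 0.08, adjusted p = 0.0068) and RPS23 at 0.35 (SE 0.06, adjusted p = 0.0046) rose and none fell, while 3.03% of all genes rose and 6.52% fell. RPL30 had the largest difference at 0.53 (SE 0.17, adjusted p = 0.084). RPS15A is among the genes under 10 FPKM with an overlapping same-strand gene, whose values are not taken as levels. It stood at 3.73, 3.36 and 3.82 FPKM in ELI and 5.89, 4.87 and 5.07 FPKM in Comb, and no ELI library reached those of Comb. Its call was lost without ELI replicate 1, 2 or 3, without Comb replicate 1 or 3 and without the 4 libraries numbered 1.

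The count of genes called higher in Comb than in ELI grew from 3 to 15 with the replicate block, where 4.83% of all genes were higher. It was 26 with a GC and length trend removed (12.1% of all genes) and 36 in a fit of only these 6 libraries (10.0% of all genes). Leaving out DMSO replicate 1, which enters only through the shared spread, gave 11, and DMSO replicate 2 or 3 gave 5, as did leaving out the 4 libraries numbered 1. None was lower in any of these. The median stayed between 0.13 and 0.18 when 1 library was left out and was 0.11 without all libraries numbered 1. The count of genes whose libraries did not overlap was 62 to 67 when 1 library of either group was left out, against 21.9% to 29.9% of all genes, and 64 without the libraries numbered 1, against 34.5% of all genes.

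**Figure D4:**
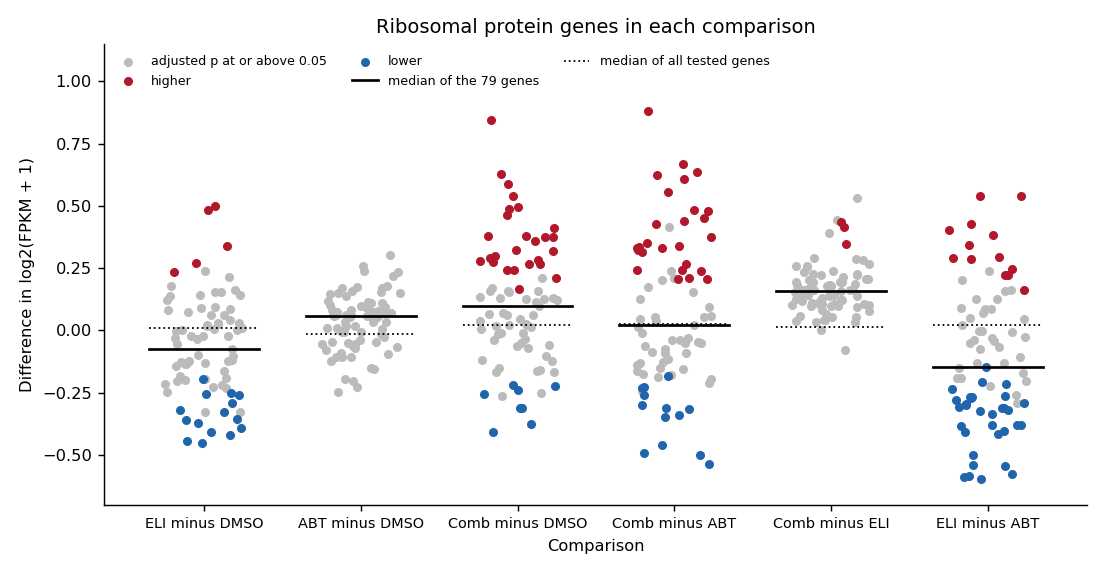
Difference in log2(FPKM + 1) (vertical axis) of each of the 79 genes in 6 comparisons, red where higher and blue where lower at an adjusted p below 0.05, with the median of the set as a solid line and that of all genes as a dotted line. In Comb minus ELI 78 of the 79 genes lie above 0 and the set's median of 0.16 lies above that of all genes.

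The difference of 2 differences, Comb from ABT less ELI from DMSO, is called the interaction and asks whether eliglustat acted differently with venetoclax than alone. It was above 0 for 67 of 79 genes, with a median of 0.11 against 0.02 for all genes. Only 1 gene, RPS23, passed the threshold at 0.38 (adjusted p = 0.032 by limma), where 1.68% of all genes were higher and 3.67% lower. RPS24 at 0.47 (SE 0.13, adjusted p = 0.065), RPS27A at 0.46 and RPL7 at 0.45 had larger values that did not pass. The lowest were RPL35 at -0.14, RPSA at -0.12 and RPS19BP1 at -0.11. The RPS23 call was lost without DMSO replicate 3, ELI replicate 1, 2 or 3, ABT replicate 2, or Comb replicate 1 or 3, each leaving 0 called genes. The count was 10 with the replicate block, 13 without DMSO replicate 2, 2 without ABT replicate 1 and 3 without the 4 libraries numbered 1, all higher.

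Between the single drugs, 13 genes were higher and 32 lower in ELI than in ABT, where 33.2% of all genes were higher and 29.8% lower. The median log2 difference was -0.15, against 0.02 for all genes. RPL35 at -0.60 (SE 0.12), RPL8 and RPS29 at -0.59, RPSA at -0.58 and RPS26 and RPL36 at -0.54 were lower. RPL22 and RPS23 at 0.54, RPS24 at 0.40, RPL7 at 0.38 and RPL36AL at 0.34 were higher. Leaving out ELI replicate 1 gave 8 and 15, ABT replicate 2 gave 8 and 19, and ABT replicate 3 gave 12 and 14. The RPL7 call was lost in the first 2 of these fits and, at an adjusted p of 0.68, with a GC and length trend removed. In the 9 libraries of DMSO, ELI and ABT with the block the counts were 17 and 43, against 37.7% and 33.0% of all genes.

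Comparisons that share a group share its libraries, and ELI had the lowest group mean for 46 of the 79 genes while Comb had the highest for 39 and ABT for 36. The largest group mean exceeded the smallest by a median factor of 1.24, and by more than 1.5 in 10 genes, RPL17 among them. Among the genes that reached 1 FPKM in all libraries, RPS23 led with 1.90, and RPL22 followed with 1.60, RPS12 with 1.55 and RPS24 with 1.54.

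Members of the same functional group did not all move alike. The acidic stalk proteins RPLP0, RPLP1 and RPLP2, which bind elongation factors, were all lower in ELI than in ABT, at -0.32, -0.31 and -0.38, and the last 2 lost their calls without ELI replicate 1, ABT replicate 2 or ABT replicate 3. Removing the GC and length trend ended the RPLP2 call as well (adjusted p = 0.12) and moved the median of the 3 genes from -0.32 to -0.15, while RPLP1 lost its call also without ELI replicate 2 and with no filter. Between Comb and ABT only RPLP0 fell, at -0.23 (SE 0.09, adjusted p = 0.038), a call lost with the GC and length trend removed and without ELI replicate 3, ABT replicate 2 or 3, or Comb replicate 1, 2 or 3. RPL5 and RPL11, which form a particle with the smallest ribosomal RNA of the large subunit, rose in Comb against ABT, at 0.31 (SE 0.08, adjusted p = 0.0042) and 0.24 (SE 0.08, adjusted p = 0.016); the RPL11 call was lost without ABT replicate 2.

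Of 9 Diamond-Blackfan anemia genes, 4 rose and 1, RPS26, fell in Comb against ABT, where 35.4% of all genes rose and 31.7% fell. RPS19, the gene most often affected in that disease, differed by -0.09 (SE 0.09, adjusted p = 0.39), and RPS14, the gene of the 5q deletion syndrome, by -0.03 (SE 0.08, adjusted p = 0.75). With the GC and length trend removed the RPS19 value was 0.13 (adjusted p = 0.034). RPS6, the substrate of the S6 kinases, rose by 0.34 (SE 0.09, adjusted p = 0.0056), a call lost with that trend removed. Of the paralog pair, RPL36AL rose by 0.48 (SE 0.08) and RPL36A by 0.38 (SE 0.10). RPL36A is among the genes under 10 FPKM with an overlapping gene.

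The direction of single genes followed the GC content of their transcripts. The median GC content of the 79 genes was 49.0%, with a range of 39.5% to 66.2%. Of the 39 genes below the median, 21 were higher and 1 lower in Comb than in ABT, and of the 40 at or above it 5 were higher and 12 lower. In ELI against DMSO the counts were 5 higher and 2 lower below the median, and 0 and 13 at or above it. Over all genes at any GC content, 35.4% were higher and 31.7% lower in Comb than in ABT. In ELI against DMSO the shares were 16.4% and 19.8%. Shares of all genes by GC content are not given, so these counts are not read as particular to the set. Spearman's rho between GC content and the difference of Comb from ABT was -0.62 over the 79 genes. It was -0.55 for ELI against DMSO, 0.45 for ABT against DMSO, -0.22 for Comb against ELI and -0.49 for the interaction.

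Over all tested genes rho was -0.54 for Comb against ABT, so the relation was not limited to this set, and replicates of 1 group differed along it too. Within DMSO, the deviation of replicate 1 from the group mean had a rho of -0.58 with GC content over the 79 genes and that of replicate 2 had 0.62. With a GC and length trend removed from each library, rho lay between -0.24 and 0.05 in all comparisons; it stayed at -0.23 for Comb against ELI. Comb against ABT then had 17 genes higher and 4 lower below the median and 14 and 4 at or above it, with a median of 0.08 against -0.02 for all genes. The shares of all genes called in that fit are not given. The median difference of Comb from ELI was then 0.18. Whether the GC relation of the group differences comes from the treatments or the libraries was not tested.

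**Figure D5:**
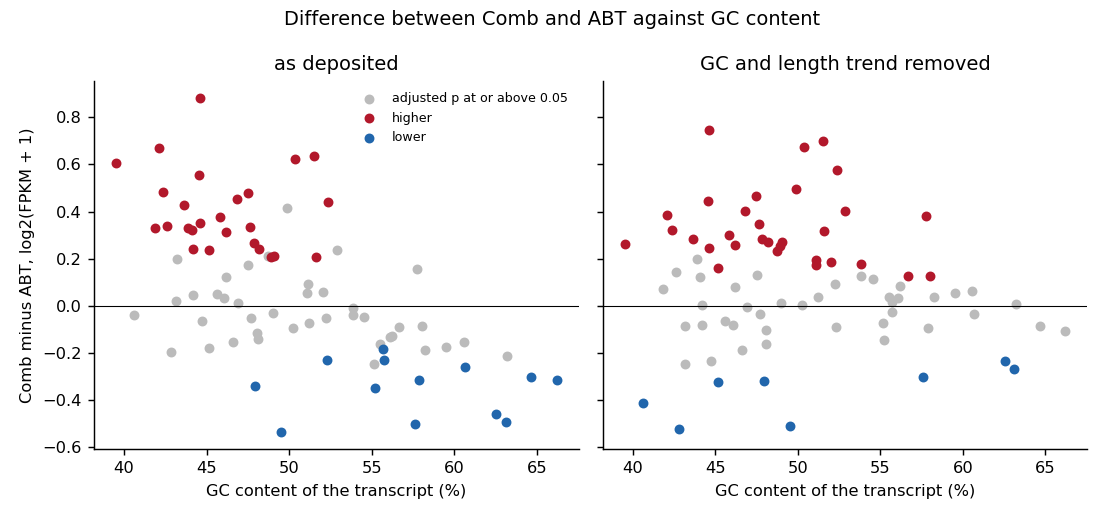
Comb minus ABT difference in log2(FPKM + 1) of the 79 genes (vertical axis) against the GC content of their transcripts in percent (horizontal axis), as deposited and with a GC and length trend removed, with red for higher and blue for lower genes. As deposited 21 of 39 genes below the median GC content of 49.0% are higher, and with the trend removed red and blue points lie on both sides.

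Other genes of ribosome production are given for comparison. Among the paralogs outside the set, RPL39L, best known from male germ cells, stood at 8.97, 11.7 and 10.9 FPKM in DMSO, 5.61, 5.47 and 5.51 in ELI, 9.37, 9.82 and 11.4 in ABT and 3.15, 2.98 and 2.66 in Comb. It was lower in both ELI and Comb without overlap, and its log2 difference of Comb from ABT was -1.51 (SE 0.10, adjusted p = 1.4e-07). Its interaction was -0.69 (SE 0.14, adjusted p = 0.010). RPL7L1 rose by 0.18 in Comb against ABT, RPL22L1, RPL26L1 and RPS27L did not pass (0.07, -0.08 and -0.13), and RPL3L and RPL10L failed the filter.

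The ribosomal protein genes FAU and RACK1, whose names fall outside the rule, differed by -0.35 and -0.10 between Comb and ABT and did not pass. Of 15 tested further TOP mRNAs, 9 rose and 4 fell, where 35.4% of all genes rose and 31.7% fell. Among those that rose were TPT1 at 0.66, EEF1A1 at 0.48 and EIF4B at 0.39. The elongation factor gene EEF1A1 stood at 1067, 1011 and 1029 FPKM in ABT and at 1454, 1392 and 1476 FPKM in Comb without overlap.

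In Comb against ABT 35.4% of all genes rose and 31.7% fell. Of 71 mitochondrial ribosomal proteins, 8 rose and 36 fell, led by MRPL37 at -1.19, MRPL33 at -0.77 and MRPL16 at -0.66. Of 8 chaperones of ribosomal proteins 2 rose and 2 fell, among them GRWD1 at -0.72 and NACA at 0.52. Of 15 genes of RNA polymerase I transcription, which makes ribosomal RNA, 4 rose and 5 fell, among them POLR1E at -0.59, RRN3 at 0.60 and UBTF at -0.46. The chaperone and polymerase I counts lay near or under the shares of all genes. Of 8 regulators of TOP mRNA translation 2 rose and 5 fell, among them CNBP at 0.81, EIF4EBP1 at -0.84 and RPS6KB2 at -0.54.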

How the data were processed

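The authors deposited 1 table of FPKM values for 20036 genes and 12 libraries; its scaling was read from the values, and no source used here names the aligner, counter, genome build or annotation. Sample titles gave groups and replicate numbers. Members and lists were chosen with earlier results of these data known. The 9959 genes that reached 1 FPKM in 3 libraries were tested on log2(FPKM + 1) with limma 3.58.1 in R 4.3.3, as 4 group means with trended, robust variances; fold changes on this scale understate those of low genes. P-values were Benjamini-Hochberg adjusted within a contrast, at a threshold of 0.05. Named were, per contrast, the 6 called genes with the largest change in each direction (3 as values where fewer passed) and 13 fixed genes; some genes that met this rule are not reported here.

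All 16361 genes above 0 gave whole reads (100.0%) within 0.001 of a whole number, and voom was run on these reads. GC content came from the longest protein-coding transcript in GENCODE 29 (99.9% of tested genes), and a loess trend (span 0.5, degree 1) on GC and length was removed in an alternative. Correlations of deviations of same-numbered libraries were 0.24 to 0.88 among DMSO, ELI and ABT and -0.40 to 0.16 with Comb, so numbers were taken to pair those 3 groups. Chi-square per degree of freedom within groups was 2.71 or more, so no library was a copy. It was 2.71 to 4.41 in Comb and 13.2 to 83.6 in DMSO, while the groups shared 1 estimate of the spread in the fit. The fit was also run on simulated reads of independent libraries, with no GC trend and no pairing of replicate numbers. That run therefore does not cover these features of the data.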

Additional observations from a re-analysis of the deposited data

Results flagged for a closer look

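RPS23 differed between groups in how it responded to eliglustat: the interaction was 0.38 on the log2(FPKM + 1) scale (adjusted p = 0.032 by limma), with a rise of 0.50 over DMSO and of 0.88 over ABT. All 3 Comb libraries lay above all 3 ELI libraries, and the call was lost in 7 of the 12 fits that each left out 1 library.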

How the results depend on the processing

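Median-of-ratios scaling, scaling to reads outside the set, no filter, a pseudocount of 0.1 and voom left every count of called genes within 1.5 times. With the replicate block over all libraries 31 genes were called in ELI minus DMSO, 15 in Comb minus ELI and 10 in the interaction; the block over the 9 libraries of DMSO, ELI and ABT, chosen after seeing the data, gave 44 in ELI minus DMSO and 13 in ABT minus DMSO. The block moved no other count past 1.5 times. A fit of only the compared groups gave 6 in ELI minus DMSO and 36 in Comb minus ELI. Removing the GC and length trend gave 26 in Comb minus ELI and 8 in the interaction, and with the block also 36 in ELI minus DMSO, 1 in ABT minus DMSO, 51 in Comb minus ELI and 21 in the interaction. Without the 4 libraries numbered 1, also chosen after seeing the data, 42 were called in ELI minus DMSO, 5 in Comb minus ELI and 3 in the interaction. Leaving out 1 library gave 7 to 46 in ELI minus DMSO, 0 to 3 in ABT minus DMSO, 18 to 44 in Comb minus DMSO, 30 to 49 in Comb minus ABT, 2 to 11 in Comb minus ELI, 23 to 53 in ELI minus ABT and 0 to 13 in the interaction. RPS19 in Comb minus ABT turned from -0.09 to 0.13 with the trend removed, with the block or without. The causes were not tested. Of 69 calls of named genes, 44 were kept under every alternative.

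With 3 libraries a group, and 34 to 82 reads for RPL17, the lowest gene, small differences of low genes may not be detectable. The p-values cover the spread between libraries of 1 cell line only.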
